A study of Mus musculus with 18 samples.

Results

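The 54 genes described here are developmental regulators of the homeobox class that lie outside the Hox clusters, taken by name from the 43346 genes of the deposited expression table. They comprise 7 Pax genes, 9 LIM-homeobox genes, 11 genes of the NK-like group, 6 Iroquois genes, 11 genes of the paired-like group, 7 genes of the extended Hox group such as Cdx2 and Meox1, and the 3 Onecut genes. The choice used names only and no measured value, but it was made with earlier results of these data known. The label is not exact for every gene, since for example Pax1 and Pax9 encode paired-domain proteins that lack a homeodomain.

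The cells were MC3T3-E1 subclone 4 cells, a mouse calvarial pre-osteoblast line of C57BL/6 origin, labelled as passage P9. In the EPZ6438 arm they were grown for 3 days in osteogenic medium with 2.5 µM EPZ6438, also called tazemetostat, an inhibitor of the histone methyltransferase EZH2. In the DMSO arm the same cells received 0.25% DMSO, the vehicle, in the same medium for the same time, and whether the EPZ6438 medium held DMSO is not stated in the sources used here. RNA was sequenced from 3 libraries per arm, and peak lists of H3K27me3 and H3K4me3 were deposited as 1 merged list per mark and arm, for which the labels give 2 samples each. Both arms come from 1 subcloned line, and nothing says that the libraries came from separate cultures, so p-values measure the spread between these libraries, which may be technical.

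Homeobox genes encode transcription factors that bind DNA through a homeodomain and assign positional and cell type identity in the embryo. Polycomb repressive complex 2, whose catalytic subunit is EZH2, places H3K27me3, a mark of silent genes, and homeobox genes whose lineage is not in use are among its best known targets. H3K4me3 marks active promoters, and a promoter that carries both marks is called bivalent. Prrx1, Prrx2, Alx1 and Alx4 are factors of limb and craniofacial mesenchyme, the tissue from which much of the calvaria forms.

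Promoters of 6 of these genes are shown first because the results below turn on them. They include the gene whose RNA passed the test (Lhx2) and the 2 most abundant genes (Prrx1 and Prrx2). The others belong to genes at 0 reads with an H3K27me3 peak over a RefSeq start in either list (Uncx, Irx4 and Pitx3). Genes without a RefSeq promoter were not considered for this choice. Each run is the 250 bases before a RefSeq transcription start, 5′ to 3′ on the gene's strand, from build GRCm38.p6, and capitals mark CpG dinucleotides. The Lhx2 run lies at chr2:38339031-38339280 on the plus strand and holds 25 CpG. The Prrx1 run lies at chr1:163313651-163313900 on the minus strand and holds 4. The Prrx2 run lies at chr2:30845117-30845366 on the plus strand and holds 21. The Uncx run lies at chr5:139543648-139543897 on the plus strand and holds 20. The Irx4 run lies at chr13:73260247-73260496 on the plus strand and holds 22. The Pitx3 run lies at chr19:46148326-46148575 on the minus strand and holds 16.
Lhx2: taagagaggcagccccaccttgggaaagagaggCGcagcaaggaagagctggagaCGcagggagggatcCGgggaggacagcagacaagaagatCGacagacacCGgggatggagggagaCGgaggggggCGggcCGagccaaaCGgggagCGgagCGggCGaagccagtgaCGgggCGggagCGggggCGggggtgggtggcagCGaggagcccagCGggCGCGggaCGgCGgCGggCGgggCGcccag
Prrx1: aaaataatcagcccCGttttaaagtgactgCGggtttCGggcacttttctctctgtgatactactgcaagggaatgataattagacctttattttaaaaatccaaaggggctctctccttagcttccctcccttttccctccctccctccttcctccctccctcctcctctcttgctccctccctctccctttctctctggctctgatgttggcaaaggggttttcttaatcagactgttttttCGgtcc
Prrx2: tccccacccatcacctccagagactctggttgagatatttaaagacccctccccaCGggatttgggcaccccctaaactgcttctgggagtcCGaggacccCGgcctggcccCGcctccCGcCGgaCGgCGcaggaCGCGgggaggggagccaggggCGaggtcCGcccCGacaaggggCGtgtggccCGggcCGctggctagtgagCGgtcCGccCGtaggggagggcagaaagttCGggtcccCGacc
Uncx: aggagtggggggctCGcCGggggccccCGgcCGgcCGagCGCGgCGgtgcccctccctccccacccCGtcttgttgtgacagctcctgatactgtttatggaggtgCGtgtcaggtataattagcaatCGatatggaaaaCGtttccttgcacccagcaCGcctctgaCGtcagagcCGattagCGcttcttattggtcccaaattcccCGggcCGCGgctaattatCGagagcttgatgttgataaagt
Irx4: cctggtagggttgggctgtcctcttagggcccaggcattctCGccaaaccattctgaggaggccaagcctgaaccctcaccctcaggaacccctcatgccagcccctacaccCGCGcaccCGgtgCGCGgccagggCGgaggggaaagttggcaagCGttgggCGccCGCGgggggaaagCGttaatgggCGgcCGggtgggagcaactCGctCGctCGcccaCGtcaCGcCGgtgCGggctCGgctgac
Pitx3: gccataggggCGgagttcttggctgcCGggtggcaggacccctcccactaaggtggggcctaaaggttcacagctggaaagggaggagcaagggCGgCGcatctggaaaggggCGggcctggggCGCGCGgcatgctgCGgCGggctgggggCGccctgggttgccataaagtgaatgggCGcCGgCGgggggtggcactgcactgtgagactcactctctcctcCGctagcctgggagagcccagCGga

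The RNA libraries held between 18807156 and 25365513 reads in genes, and between 18289 and 19196 genes had at least 1 read. At these depths 3 reads, the limit that a count of 0 allows, correspond to 0.118 to 0.160 counts per 1000000 reads in genes (CPM) over the 6 libraries, for counting error only. All 12 osteoblast markers on the list were tested, 7 rose, 1 fell (Postn) and 4 did not pass. Their summed level, most of it Col1a1, Col1a2 and Sparc, was 8087 to 9828 reads per kilobase of gene and 1000000 reads (RPKM) under EPZ6438 and 5687 to 8091 RPKM in DMSO. Ezh2 RNA itself differed by a log2 change of 0.05 (adjusted p = 0.839, limma), which does not bear on the drug's action because EPZ6438 acts on the enzyme. Markers of endothelium, epithelium and fat cells were all below the limit for testing. Of 5 blood markers 2 were tested, and neither passed. Lyz2 averaged 18.5 RPKM under EPZ6438 and 15.6 RPKM in DMSO, with arms that did not overlap (adjusted p = 0.230, limma). Cd68 averaged 1.20 RPKM under EPZ6438 and 1.00 RPKM in DMSO (adjusted p = 0.544, limma). Of 6 chondrocyte markers 4 rose, and Acan was at 0 reads. The summed level of the 6, most of it Col2a1, was 90.0 to 124 RPKM under EPZ6438 and 16.1 to 27.03 RPKM in DMSO. Sox9 averaged 5.07 RPKM under EPZ6438 and 5.72 RPKM in DMSO and did not pass (log2 change -0.15, adjusted p = 0.642, limma). Of 8 neuronal markers 1 rose, Tubb3, which averaged 33.6 RPKM under EPZ6438 and 7.997 RPKM in DMSO and made up most of a summed level of 31.3 to 39.4 RPKM under EPZ6438 and 8.36 to 10.2 RPKM in DMSO. Map2, the other tested one, averaged 1.09 RPKM under EPZ6438 and 1.33 RPKM in DMSO (log2 change -0.27, adjusted p = 0.425, limma), the remaining 6 were too low to test, and of these Rbfox3 and Elavl4 were at 0 reads. Of 6 skeletal muscle markers 1 rose (Des), and Myod1, Myf5 and Myog were at 0 reads.

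The 54 genes fell into 3 sets by RNA level, and 1 gene passed the test between the arms. The filter for testing, at least 10 reads in at least 3 libraries, left 23 genes, another 11 had some reads but too few, and 20 were listed at 0 in all 6 libraries. The table also lists all 37 mitochondrial genes at 0, so a 0 here means no counted read and not that a gene was shown to be unexpressed. Of the 23 tested genes 1 rose with EPZ6438 (Lhx2), none fell and 22 did not pass an adjusted p of 0.05. Lhx2 reached the filter through the EPZ6438 libraries alone, so it could be called only as a rise. Of all 14213 genes tested with limma across the table, 3.80% rose and 3.24% fell, 7.04% in either direction. The median log2 change was -0.09 over the 23 genes and -0.03 over all genes tested. An unadjusted p under 0.05 was found for 8 of the 23 and for 2927 of all genes tested. The 3 EPZ6438 libraries lay wholly above the 3 DMSO libraries for 5 of the 23 genes and wholly below for 5, where 26.7% of all genes tested had arms that did not overlap. In bulk RNA, fewer cells that express a gene and less RNA per cell cannot be told apart.

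**Figure D1:**
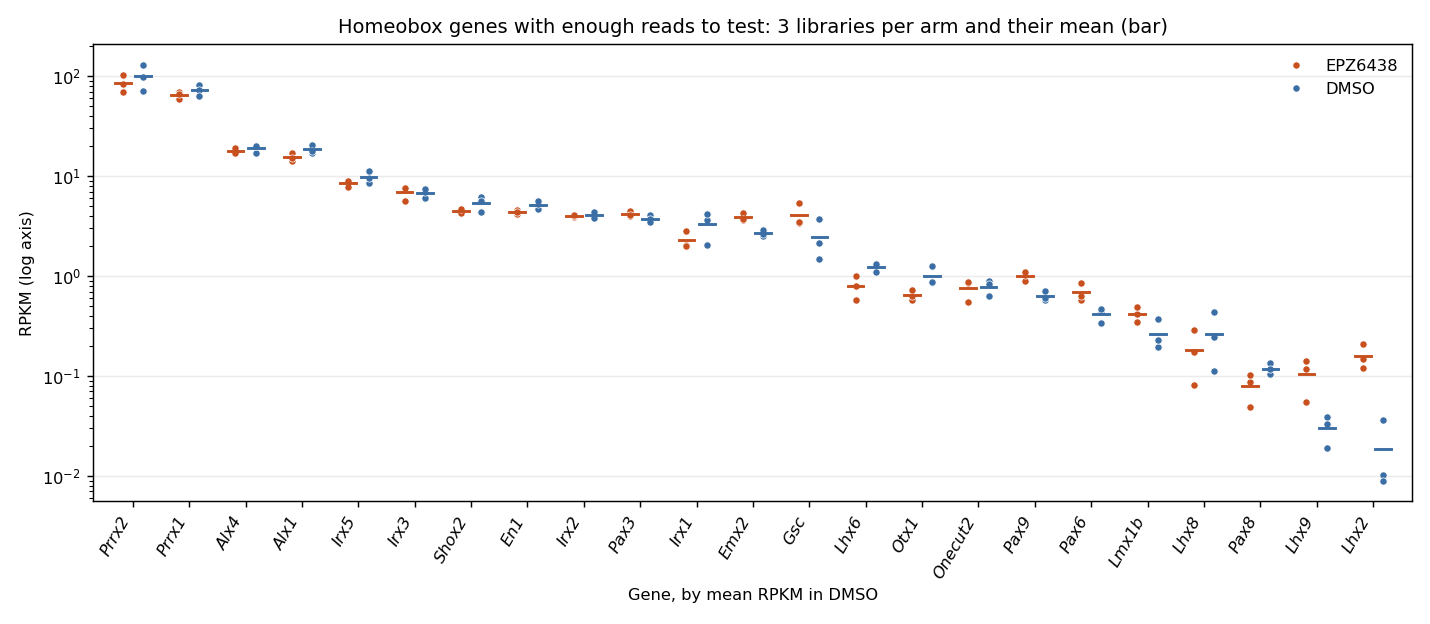
RPKM on a log axis for each of the 23 tested homeobox genes, ordered by their mean in DMSO, with 1 point per library (EPZ6438 left of DMSO, 3 libraries each) and a bar at each arm's mean. The levels span Prrx2, at 85.3 RPKM under EPZ6438 and 99.3 RPKM in DMSO, to Lhx2, at 0.158 RPKM under EPZ6438 and 0.0185 RPKM in DMSO.

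The paired-like group held the most abundant genes, and no member of it passed the test. Prrx2, a factor of limb and jaw mesenchyme, had 68.7, 103 and 84.1 RPKM in the EPZ6438 libraries, against 70.3, 97.6 and 130 RPKM in the DMSO libraries. Its arms overlapped widely, and its log2 change was -0.19 with a standard error of 0.24 (95% interval -0.75 to 0.36, adjusted p = 0.703, limma). Prrx1, its close relative, had 69.4, 59.5 and 66.9 RPKM under EPZ6438 and 81.8, 72.5 and 63.3 RPKM in DMSO. These arms overlapped too, with a log2 change of -0.15 ± 0.11 (SE) and an adjusted p of 0.519 by limma. For Prrx1 the 95% interval of the log2 change ran from -0.41 to 0.12. Prrx1 and Prrx2 did not differ from each other beyond their spread in either arm, and the other tested genes lay at 20.3 RPKM or less in every library.

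Alx4 and Alx1, which pattern the skull and face, came next. Alx4 averaged 17.7 ± 1.06 RPKM under EPZ6438 and 18.9 ± 1.78 RPKM in DMSO (SD, n = 3 each), and its 95% interval for the log2 change was -0.32 to 0.14. Alx1 had 17.1, 14.2 and 15.0 RPKM under EPZ6438 and 20.3, 17.1 and 17.9 RPKM in DMSO. The EPZ6438 libraries of Alx1 were all below the DMSO libraries by a narrow margin, with a log2 change of -0.26 ± 0.11 (SE) and an adjusted p of 0.229 by limma. Alx4 shares part of its span with Ext2, a gene of heparan sulfate synthesis measured at 22.9 RPKM under EPZ6438 and 21.1 RPKM in DMSO, and whether the counting used strand is not given in the sources used here.

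Shox2, which acts in the proximal limb, had 4.38, 4.29 and 4.67 RPKM under EPZ6438 and 6.12, 5.64 and 4.40 RPKM in DMSO, with overlapping arms (log2 change -0.26, adjusted p = 0.367, limma). The protein-coding gene Rsrc1 overlaps Shox2 and averaged 4.31 RPKM under EPZ6438 and 4.44 RPKM in DMSO, so the same limit on strand holds. Gsc, named for the goosecoid factor of the gastrula organizer and also active in craniofacial mesenchyme, had 3.41, 3.49 and 5.39 RPKM under EPZ6438 and 1.47, 2.16 and 3.73 RPKM in DMSO. The highest DMSO library of Gsc exceeded the 2 lower EPZ6438 libraries, and its log2 change of 0.78 ± 0.34 (SE) had an adjusted p of 0.249 by limma. Otx1, a forebrain factor, had 0.578, 0.634 and 0.718 RPKM under EPZ6438 and 0.863, 0.880 and 1.27 RPKM in DMSO. All 3 EPZ6438 libraries of Otx1 were lower, with a log2 change of -0.56 ± 0.19 (SE) and an adjusted p of 0.158 by limma. The other 4 members of the group (Pitx1, Pitx3, Otx2 and Uncx) had 0 reads.

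The Iroquois genes lie in 2 clusters, Irx1, Irx2 and Irx4 in one and Irx3, Irx5 and Irx6 in the other, and 4 of the 6 were tested. Irx5 had 8.68, 8.93 and 7.79 RPKM under EPZ6438 and 8.52, 9.53 and 11.1 RPKM in DMSO. Irx3, which acts with Irx5 in limb and heart, had 5.59, 7.55 and 7.67 RPKM under EPZ6438 and 6.01, 6.995 and 7.46 RPKM in DMSO. Both had overlapping arms, with log2 changes of -0.19 for Irx5 (adjusted p = 0.444) and 0.02 for Irx3 (adjusted p = 0.969, limma). Irx2 kept within 3.82 and 4.40 RPKM in all 6 libraries (log2 change -0.04, adjusted p = 0.885, limma). Irx1 had 2.02, 2.83 and 2.02 RPKM under EPZ6438 and 2.04, 3.62 and 4.18 RPKM in DMSO, a log2 change of -0.46 ± 0.28 (SE) with an adjusted p of 0.418 by limma. In each arm the most deeply sequenced library gave the highest value of both Irx1 and Prrx2, and the part of depth in these values was not tested. The remaining pair differed in reads, since Irx4, a factor of the cardiac ventricle, had 0 and Irx6 had 8 in total, 6 of them under EPZ6438.

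Of the 7 Pax genes 4 were tested, and none passed. Pax3, a factor of neural crest and muscle precursors, had 4.48, 4.01 and 4.04 RPKM under EPZ6438 and 4.06, 3.69 and 3.48 RPKM in DMSO, with a log2 change of 0.15 (adjusted p = 0.513, limma). Pax9, which patterns sclerotome, teeth and palate, had 0.902, 1.02 and 1.09 RPKM under EPZ6438 and 0.578, 0.596 and 0.702 RPKM in DMSO. All 3 EPZ6438 libraries of Pax9 were higher, with a log2 change of 0.61 ± 0.16 (SE, 95% interval 0.23 to 0.98) and an adjusted p of 0.0711 by limma. Pax6, a factor of eye and forebrain, had 0.845, 0.581 and 0.636 RPKM under EPZ6438 and 0.336, 0.443 and 0.469 RPKM in DMSO. Pax6 was likewise higher in all 3 EPZ6438 libraries, with a log2 change of 0.61 ± 0.20 (SE) and an adjusted p of 0.140 by limma. Pax8, a thyroid and kidney factor, averaged 0.0794 RPKM under EPZ6438 and 0.119 RPKM in DMSO (adjusted p = 0.488, limma). Pax2 had 0, 1 and 5 reads under EPZ6438 and none in DMSO, and Pax1 and Pax7 had 0 reads throughout.

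The LIM-homeobox genes include the 1 gene that passed. Lhx2, a factor of eye, forebrain and hair follicle that also acts in the limb bud, lies at chr2:38339281-38369733 (mm10) and had 0.119, 0.207 and 0.148 RPKM under EPZ6438 and 0.0363, 0.0102 and 0.00897 RPKM in DMSO. In reads these are 11, 22 and 13 under EPZ6438 and 3, 1 and 1 in DMSO. The arms did not overlap, but each DMSO library was at or under the 3-read limit, and Lhx2 reached the filter through the EPZ6438 libraries alone, so a gene that low in DMSO could be tested only if it was higher under EPZ6438. On the log2(RPKM + 0.1) scale the change was 1.12 ± 0.23 (SE, 95% interval 0.58 to 1.65) with an adjusted p of 0.0313 by limma. The summed reads, 46 under EPZ6438 and 5 in DMSO, gave a depth-corrected ratio of 9.37, with a 95% counting interval of 3.74 to 30.2. The call held in 5 of 14 alternative settings, with adjusted p between 0.0115 and 0.128, and the log2 change ran from 0.18 to 2.96 with the pseudocount and scale. The call did not hold with the replicate number as a block in the fit. Without single libraries it held only when DMSO replicate 1, the one with 3 reads, was left out, and the adjusted p ran from 0.0447 to 0.128. Tubb3 and the 4 chondrocyte markers that rose were higher in the same libraries, while Sox9 was not. Their part in the Lhx2 value was not tested.

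No other LIM-homeobox gene passed. Lhx9, a gonad and brain factor, had 11, 27 and 27 reads under EPZ6438 and 7, 4 and 8 reads in DMSO, again above the filter only under EPZ6438, and its adjusted p was 0.193 by limma. Lmx1b, which specifies the dorsal limb, had 0.350, 0.416 and 0.491 RPKM under EPZ6438 and 0.196, 0.230 and 0.372 RPKM in DMSO, with 1 DMSO library above the lowest EPZ6438 library (log2 change 0.52, adjusted p = 0.265, limma). Lhx6, a factor of jaw mesenchyme and of cortical interneurons, had 0.801, 0.578 and 0.998 RPKM under EPZ6438 and 1.26, 1.31 and 1.09 RPKM in DMSO. All EPZ6438 libraries of Lhx6 were lower, with a log2 change of -0.59 ± 0.21 (SE) and an adjusted p of 0.161 by limma. Lhx8, often found with Lhx6 in jaw and forebrain, ranged from 0.0820 to 0.289 RPKM under EPZ6438 and from 0.111 to 0.437 RPKM in DMSO (adjusted p = 0.710, limma). Among those with too few reads to test, Lhx4, a pituitary factor, had 16, 13 and 3 reads under EPZ6438 and 0, 0 and 4 in DMSO, so the arms overlapped. Its summed reads gave a ratio of 8.15 with a 95% counting interval of 2.89 to 31.7. Lhx1 had 1 read in each EPZ6438 library and 0, 3 and 1 in DMSO.

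In the NK-like group Emx2 and En1 were expressed, and the other 9 were not or hardly detected. Emx2, a factor of cortex and urogenital tract that also shapes the scapula, had 4.32, 3.63 and 3.73 RPKM under EPZ6438 and 2.51, 2.61 and 2.88 RPKM in DMSO. Its arms did not overlap, and its log2 change of 0.53 ± 0.13 (SE, 95% interval 0.23 to 0.82) had an adjusted p of 0.0529 by limma, with 3 of 15 alternatives under 0.05. The antisense gene Emx2os, which overlaps Emx2, averaged 1.43 ± 0.333 RPKM under EPZ6438 and 1.45 ± 0.472 RPKM in DMSO (SD, n = 3 each), and reads of the 2 cannot be told apart if counting ignored strand. En1, a midbrain and limb factor also known in cranial suture cells, had 4.22, 4.53 and 4.39 RPKM under EPZ6438 and 4.64, 5.25 and 5.65 RPKM in DMSO, lower in all 3 EPZ6438 libraries (log2 change -0.23, adjusted p = 0.314, limma). Nkx2-5, the cardiac factor, had 1 read in total, Barx1 had 1, and Nkx3-2, which acts in cartilage and sclerotome, had 4. Nkx2-2, Nkx6-1, Barx2, Emx1, En2 and Lbx1 had 0 reads in all 6 libraries.

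The Onecut and extended Hox groups had few reads. Onecut2, a liver and pancreas factor, had 0.852, 0.548 and 0.865 RPKM under EPZ6438 and 0.897, 0.823 and 0.627 RPKM in DMSO (log2 change -0.06, adjusted p = 0.918, limma). Onecut3 had 8, 11 and 4 reads under EPZ6438 and 1, 2 and 3 in DMSO, below the filter, with a read ratio of 3.90 and a 95% counting interval of 1.54 to 11.7. Every EPZ6438 library of Onecut3 was above every DMSO library. Of the extended Hox group only Meox1, a somite factor, had reads, 0, 1 and 2 under EPZ6438 and 3, 0 and 1 in DMSO. Gbx2, Gsx1, Meox2, Cdx2, Evx1 and Evx2, which act in brain, limb muscle, gut and spinal cord, had 0 reads, as did Onecut1. Summed over the 31 genes that could not be tested, there were 30, 29 and 25 reads under EPZ6438 and 5, 5 and 11 reads in DMSO, or 1.20 to 1.43 CPM under EPZ6438 and 0.225 to 0.434 CPM in DMSO. Together Lhx4 and Onecut3 gave most of these reads.

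**Figure D2:**
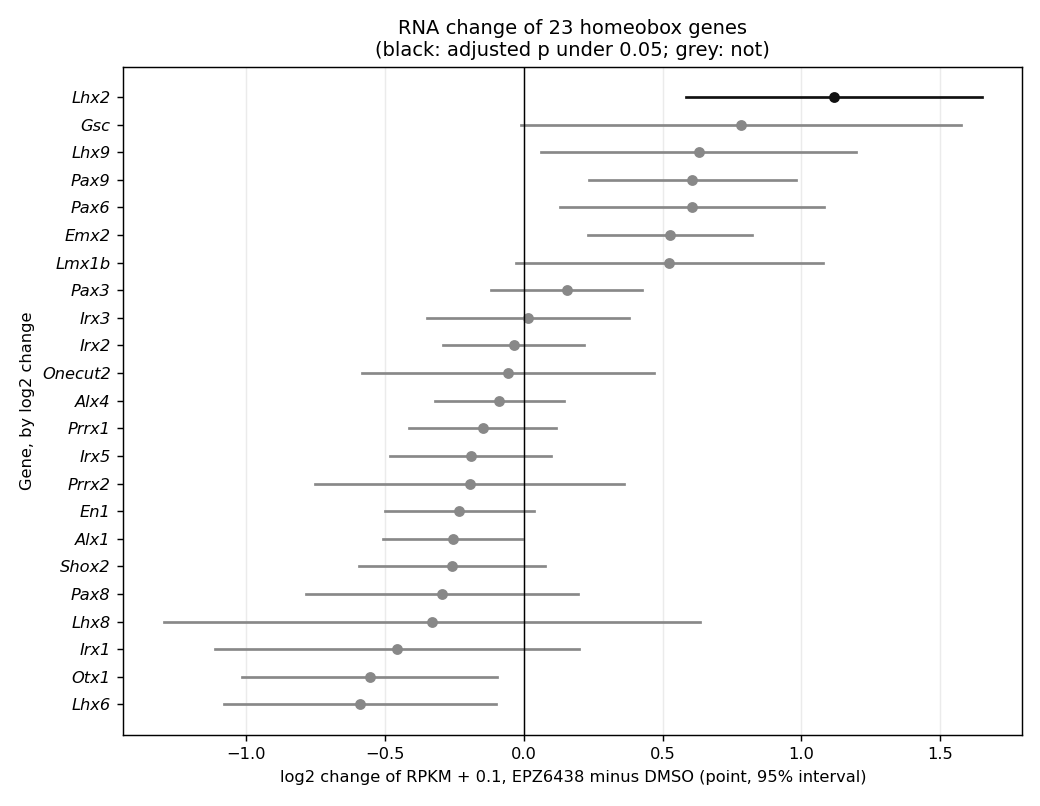
log2 change of RPKM + 0.1, EPZ6438 minus DMSO, for the 23 tested homeobox genes, as points with 95% intervals from limma, sorted by size (black, adjusted p under 0.05; grey, not). Lhx2 at 1.12 is the 1 black point, 9 points lie above 0 and 14 below, and the abundant Prrx1 and Prrx2 sit at -0.15 and -0.19.

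Other homeobox genes outside the Hox clusters, a list of 98, had 41 tested, 3 that rose, 1 that fell and a median log2 change of -0.01. Dlx3, an osteoblast and ectoderm factor, rose to 3.10, 2.87 and 3.12 RPKM under EPZ6438, against 0.816, 0.828 and 0.831 RPKM in DMSO (log2 change 1.76 ± 0.12 SE, adjusted p = 0.000640, limma). Tlx1, a spleen factor, rose to 0.311, 0.252 and 0.467 RPKM under EPZ6438, against 0.0497, 0.0210 and 0.0368 RPKM in DMSO (log2 change 1.68, adjusted p = 0.00841, limma). In reads Tlx1 had 14, 13 and 20 under EPZ6438 and 2, 1 and 2 in DMSO, so like Lhx2 it reached the filter through the EPZ6438 libraries alone and could be tested only if it was higher there. Meis2, a cofactor of Hox proteins, fell to 7.09, 7.13 and 7.21 RPKM under EPZ6438, against 9.98, 9.69 and 8.99 RPKM in DMSO (log2 change -0.41, adjusted p = 0.0375, limma). The arms of these 3 genes did not overlap.

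H3K27me3 peaks lay at most of the genes at 0 reads and at the minority of tested ones, and the EPZ6438 list held fewer of them. A gene was counted when a peak overlapped its window, the gene body with 2.5 kb beyond each end. By that rule 21 of the 54 genes had an H3K27me3 peak in the EPZ6438 list and 34 in the DMSO list, where 13.7% of protein-coding genes did under EPZ6438 and 41.5% in DMSO. The lists differ in size, with 20764 peaks over 11.6 Mb under EPZ6438 and 143399 peaks over 89.4 Mb in DMSO, and with 1 merged list per arm the differences between them have no replicate error. An H3K4me3 peak was listed at 21 genes under EPZ6438 and at 23 in DMSO, where 46.5% of protein-coding genes had one under EPZ6438 and 50.1% in DMSO. The H3K4me3 lists held 16216 peaks with a median width of 401 bp under EPZ6438 and 40113 peaks with a median width of 212 bp in DMSO.

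In DMSO 23 genes had H3K27me3 alone in their window, 12 had H3K4me3 alone, 11 had both marks and 8 had neither. Of the 20 genes at 0 reads, 12 had H3K27me3 under EPZ6438 and 18 in DMSO, and of all protein-coding genes at 0 reads 20.0% did under EPZ6438 and 49.0% in DMSO. H3K4me3 was listed at 2 of the 20 under EPZ6438 and at 3 in DMSO, beside 2.61% of protein-coding genes at 0 reads under EPZ6438 and 18.7% in DMSO. Of the 23 tested genes, 4 had H3K27me3 under EPZ6438 and 7 in DMSO, and 18 had H3K4me3 under EPZ6438 and 16 in DMSO. For tested protein-coding genes the shares with H3K27me3 were 4.65% under EPZ6438 and 28.9% in DMSO, and those with H3K4me3 were 79.5% under EPZ6438 and 69.7% in DMSO. Of the 15 genes at 1 RPKM or more in DMSO, all 15 had H3K4me3 under EPZ6438 and 12 in DMSO, and none had H3K27me3 under EPZ6438 and 1, Lhx6, in DMSO. Of protein-coding genes at that level, 85.3% had H3K4me3 under EPZ6438 and 72.5% in DMSO, and 2.37% had H3K27me3 under EPZ6438 and 24.1% in DMSO.

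**Figure D3:**
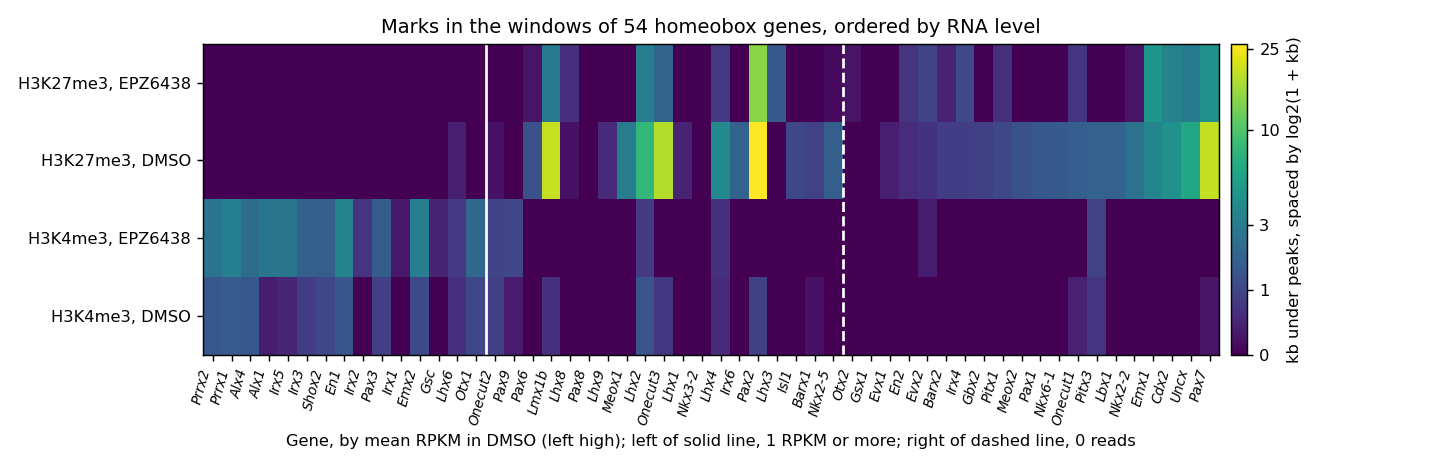
Kilobases of each gene window under peaks of the 4 merged lists (rows), for the 54 homeobox genes ordered by mean RPKM in DMSO, with the color spaced by the log of 1 + kb. Of the 15 genes of 1 RPKM or more, left of the solid line, all 15 have H3K4me3 under EPZ6438 and 12 in DMSO. Right of the dashed line 12 of the 20 genes at 0 reads have H3K27me3 peaks under EPZ6438 and 18 in DMSO.

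The 12 genes with H3K4me3 and no H3K27me3 in both arms were Pax3, Pax9, Emx2, En1, Irx3, Irx5, Alx1, Alx4, Prrx1, Prrx2, Shox2 and Otx1, all of them tested, with a median of 5.69 RPKM under EPZ6438 and 6.10 RPKM in DMSO. Irx1, Irx2 and Gsc had neither mark in DMSO and H3K4me3 under EPZ6438, and their RNA did not pass the test. At Prrx2 the EPZ6438 list held 1 H3K4me3 peak of 2528 bp at chr2:30845077-30847604, which covers the whole promoter run printed above, where the DMSO list held 4 peaks that sum to 1496 bp. At Prrx1 the nearest H3K4me3 peak ended inside the gene, at chr1:163312033-163313201 under EPZ6438 and chr1:163312575-163313145 in DMSO, and left the CpG-poor run printed above uncovered. Over all 54 windows H3K4me3 peaks covered 33.4 kb under EPZ6438 and 18.8 kb in DMSO, with more bases under EPZ6438 at 20 genes and fewer at 7. Over protein-coding genes the lists differed in the same direction, with more bases under EPZ6438 at 8803 and fewer at 4284, and the EPZ6438 length was 143% of the DMSO length, against 178% over the 54 windows. The remaining genes with no H3K27me3 peak in DMSO were Pax8, Lhx3, Nkx3-2, Otx2 and Gsx1.

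Under EPZ6438, H3K27me3 peaks over the 54 windows summed to 45.4 kb, against 137 kb in DMSO, which is 33.1% of the DMSO length, where all protein-coding windows together kept 14.6%. Covered shares of the windows were 2.89% under EPZ6438 and 8.75% in DMSO, and for protein-coding genes 0.406% under EPZ6438 and 2.78% in DMSO. The widest coverage in both lists was at Pax2, the kidney and eye factor, with 14133 bp under EPZ6438 and 26412 bp in DMSO. Lmx1b had 2971 bp under EPZ6438 and 19495 bp in DMSO, and Pax7, the factor of muscle satellite cells, had 4406 bp under EPZ6438 and 19202 bp in DMSO. Onecut3 had 1948 bp under EPZ6438 and 17832 bp in DMSO, where the list included 1 peak of 9645 bp at chr10:80490540-80500184. Lhx2 had 3135 bp under EPZ6438 and 7988 bp in DMSO, and Uncx, a sclerotome factor, had 2896 bp under EPZ6438 and 6283 bp in DMSO. Of these 6 genes with the most H3K27me3 in DMSO, all kept a peak under EPZ6438. Of the 2 whose RNA could be tested, Lmx1b did not pass. Lhx2 passed, but it could enter the test only as higher under EPZ6438.

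Of the 34 genes with H3K27me3 in DMSO, 19 (55.9%) also had a peak in the EPZ6438 list, and 32.4% of the protein-coding genes with a DMSO peak did. The 15 without one comprised 7 genes at 0 reads (Pax1, Nkx6-1, Lbx1, Gbx2, Meox2, Evx1 and Pitx3), 5 with too few reads to test (Lhx1, Isl1, Irx6, Meox1 and Barx1) and 3 tested genes (Lhx6, Lhx9 and Onecut2). None of the 3 tested ones passed in RNA, and the first 7 had no read in either arm. Lhx3 and Otx2 had a peak under EPZ6438 and none in DMSO. The Otx2 peak was 185 bp wide, the narrowest width in the EPZ6438 list, and lay 5329 bp or more from the RefSeq starts of Otx2. Fewer bases were covered under EPZ6438 at 29 genes and more at 7, namely Emx1 with 4679 bp under EPZ6438 and 3509 bp in DMSO, Irx4 with 1080 bp under EPZ6438 and 825 bp in DMSO, and Evx2 with 966 bp under EPZ6438 and 619 bp in DMSO, together with En2, Lhx8, Lhx3 and Otx2. Of protein-coding genes with a peak in either list, 1.96% had more under EPZ6438. Cdx2, the gut factor, was close in the 2 lists, with 3411 bp under EPZ6438 and 4337 bp in DMSO.

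**Figure D4:**
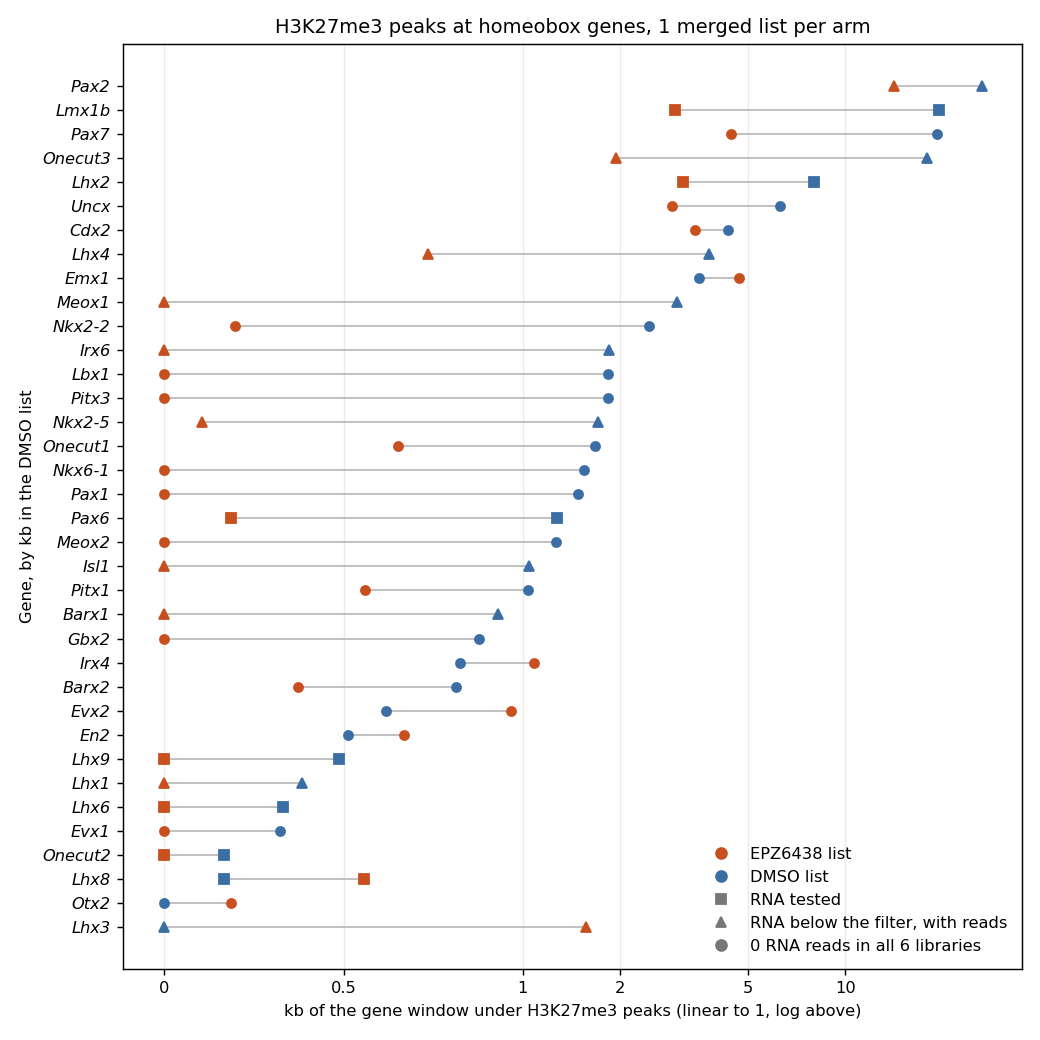
Kilobases of the gene window under H3K27me3 peaks in the EPZ6438 and DMSO lists for the 36 homeobox genes with a peak in either, joined by a line and ordered by the DMSO list; the axis is linear to 1 kb and logarithmic above. Marker shape gives the RNA class; the EPZ6438 point lies left of the DMSO point at 29 genes and right of it at 7, and 15 EPZ6438 points sit at 0.

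Both marks at the same gene end were listed at 2 genes under EPZ6438, Lhx2 and Evx2, and at 6 in DMSO, Pax2, Lhx2, Lhx6, Barx1, Pitx3 and Onecut3, where 0.368% of protein-coding genes had both under EPZ6438 and 9.13% in DMSO. Among the 20 genes at 0 reads these are 1 under EPZ6438 (Evx2) and 1 in DMSO (Pitx3), and of protein-coding genes at 0 reads 0.156% had both under EPZ6438 and 6.96% in DMSO. Either end of a gene was counted, so not every pair lay at a start. The nearest H3K4me3 peak lay 4091 bp from the start of Evx2 under EPZ6438 and 4330 bp from the start of Barx1 in DMSO. No RefSeq start was found for Onecut3, where the shared end was the one near chr10:80518745-80518921. Lhx2 was the gene with both in each arm. At its upstream RefSeq start the EPZ6438 list held H3K4me3 at chr2:38339132-38339360 and chr2:38339415-38339932. The nearest H3K27me3 peak to that start under EPZ6438, of 2369 bp, began inside the gene at chr2:38340347-38342715. In DMSO an H3K4me3 peak at chr2:38339130-38339949 and an H3K27me3 peak at chr2:38339189-38339795 lay together over that start and the end of the run printed above. A further RefSeq start of Lhx2, at chr2:38351308, lay under an H3K27me3 peak at chr2:38350760-38351762 in DMSO. Under EPZ6438 the nearest H3K27me3 peak was 6258 bp from it. The nearest H3K4me3 peak was 11376 bp away under EPZ6438 and 9282 bp in DMSO. In all, 3 H3K27me3 peaks were listed over the Lhx2 window under EPZ6438 and 12 in DMSO. At Evx2, a gene at the edge of a Hox cluster with 0 reads, the EPZ6438 lists had H3K27me3 at chr2:74655401-74656366 and H3K4me3 at chr2:74655178-74655466.

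Over the start of Uncx the H3K27me3 peak was chr5:139543581-139544189 under EPZ6438 and chr5:139542774-139544918 in DMSO, and both cover the run printed above. At Irx4 the peak was chr13:73260332-73260882 under EPZ6438 and chr13:73260568-73260824 in DMSO, so only the EPZ6438 peak reached the start. At Pitx3, a factor of lens and dopamine neurons, the DMSO peak chr19:46147907-46148354 covered the start, and no H3K27me3 peak was listed for the window under EPZ6438. All 3 genes had 0 reads in every library.

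The 7 tested genes with an H3K27me3 peak in DMSO had a median log2 change of 0.52, but Lhx2 and Lhx9 among them had under 10 reads in every DMSO library and could enter the test only as higher under EPZ6438. The other 5 (Pax6, Lmx1b, Onecut2, Lhx8 and Lhx6) had a median of -0.06, the value of Onecut2, and none that rose. By bases under DMSO peaks, the log2 changes were 0.52 for Lmx1b (19495 bp), 0.61 for Pax6 (1279 bp) and -0.59 for Lhx6 (332 bp). Lhx8 (-0.33) and Onecut2 (-0.06) had 168 bp each, the narrowest peak width in the DMSO list. The 16 tested genes without an H3K27me3 peak in DMSO had a median of -0.17 and none that rose. Over tested protein-coding genes with 10 or more reads in at least 1 DMSO library, 7.67% of the 3416 with such a peak rose and 2.34% of the 8590 without. Of the same genes, 94 with such a peak and 332 without fell. The sets also differed in level, with a median of 4.58 RPKM in DMSO with such a peak and 10.7 RPKM without. These are counts over genes of the same libraries and were given no test.

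Promoter sequences were found in the RefSeq table for 40 of the 54 genes, 50 promoters of 300 bases (250 before and 50 after the start). The 19 promoters of genes at 0 reads had a median of 17 CpG (6 to 40), where the median over 4900 promoters of protein-coding genes at 0 reads was 3. The 20 promoters of tested homeobox genes had a median of 16.5 CpG, and those of tested protein-coding genes 21. At least 10 CpG were found in 89.5% of the promoters of homeobox genes at 0 reads and in 19.1% of those of protein-coding genes at 0 reads. The Prrx1 promoter, with 6 CpG in 300 bases, was among the poorest, and Prrx1 RNA was among the most abundant. The letters TAATTA, a palindrome that many homeodomains bind and that reads the same on both strands, occurred in 5 of the 50 promoters (10.0%) and in 4.48% of protein-coding promoters. Prrx1, Uncx and Emx2 each had it, and Otx2 had it in 2 promoters. An H3K27me3 peak touched 4 of the 50 promoters (8.00%) under EPZ6438 and 6 (12%) in DMSO, and of protein-coding promoters 1.09% under EPZ6438 and 2.96% in DMSO. Promoters of the same gene were counted separately here, and some genes gave several, Pax2 in each list and Lhx2 in DMSO.

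**Figure D5:**
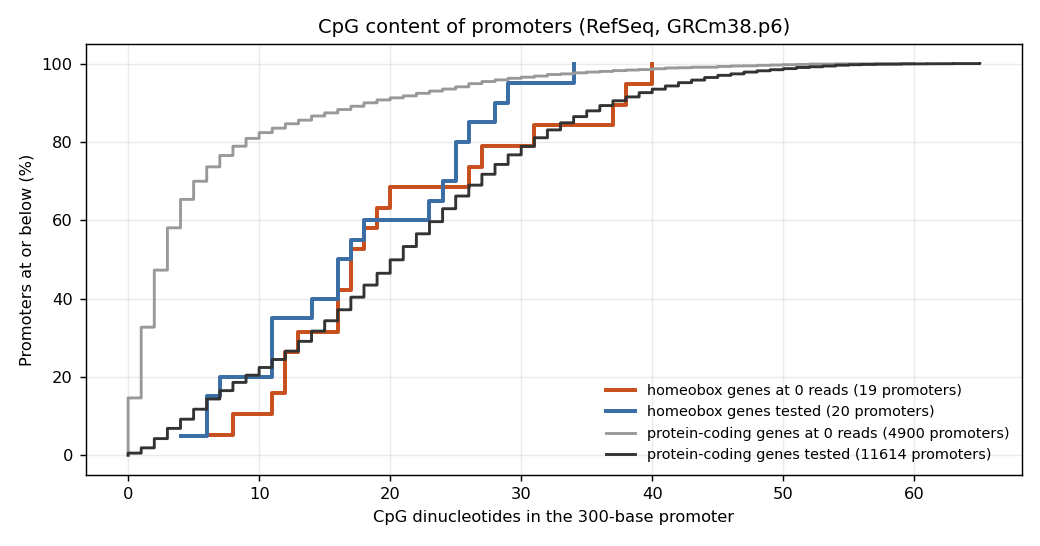
Cumulative share of promoters (%) at or below each number of CpG dinucleotides in 300 bases, for homeobox genes at 0 reads (19 promoters) and tested (20), and for protein-coding genes at 0 reads (4900) and tested (11614). The curve of homeobox genes at 0 reads, with a median of 17, runs near those of the tested genes (16.5 and 21) and to the right of that of protein-coding genes at 0 reads, with a median of 3.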

How the data were processed

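RNA of 3 EPZ6438 and 3 DMSO libraries was deposited by the authors as RPKM per gene, per the file headers. Each RPKM value times gene length gave whole reads (100% within 0.001), and each library's length-corrected values summed to 1000000, so reads and depth were recovered. The 4 peak lists, deposited by the authors as start and end positions without heights or scores, are merged samples called against input, 1 list per mark and arm. STAR 2.6.1c, Subread, MACS2, HOMER, DiffBind, Picard and build mm10 are named, without roles, in the submitters' processing notes, which give no settings for the counter. The 37 mitochondrial genes, which every cell uses, are listed at 0, so a gene at 0 has no counted read and is not shown to be unexpressed.

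Genes with at least 10 reads in at least 3 libraries were tested on log2(RPKM + 0.1) with limma 3.58.1 (R 4.3.3, trend, two-sided, Benjamini-Hochberg over all 14213 genes, threshold 0.05), and fold changes on that scale understate the change of low genes. Counting intervals are exact, 95%, and cover counting error only. Peaks were joined to windows of the gene with 2.5 kb at each end (overlap of at least 1 bp) in Python 3.11.15. Gene IDs were matched to RefSeq symbols for 54 of 54 genes and promoters for 40.

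The genes and lists were chosen with earlier results of these data known. Every tested gene was named, and of the others the 6 with the most reads, the 6 with the most H3K27me3 in DMSO and the 8 with the most under EPZ6438, all without H3K27me3 in DMSO, those with both marks at 1 end, and the other homeobox genes that passed, of which 1 is not reported here. Promoters were printed for the gene that passed, the abundant Prrx genes and genes at 0 reads with a peak over a RefSeq start. The last were picked after their peaks were seen, and genes without a RefSeq promoter, Pitx1 among them, could not be picked. Alternatives changed the pseudocount, filter, scaling, test, replicate block, single libraries, window, peak width and overlap.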

Additional observations from a re-analysis of the deposited data

How the results depend on the processing

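Under alternatives the count of tested homeobox genes that changed, 1, was 0 with a pseudocount of 0.5 RPKM, with a pseudocount of 1 RPKM and without the filter, and 2 with at least 30 reads in 3 libraries (Pax9, adjusted p = 0.0477, and Emx2, adjusted p = 0.0399), with median-of-ratios scaling and with limma's voom (Lhx2 and Emx2 in each). Leaving out single libraries gave 0 to 1. The count over all genes, 1001, was 1168 with voom, 628 without the filter and 323 to 978 without single libraries, with 323 without DMSO replicate 2, 359 without EPZ6438 replicate 3, 424 without EPZ6438 replicate 2 and 445 without EPZ6438 replicate 1. For the other homeobox genes, whose alternatives were chosen after seeing the data, the count of 4 was 2 at 30 reads, 8 with voom and 3 to 5 without single libraries. Log2 changes that turned sign belonged to genes that did not pass, over ranges without single libraries of -0.67 to 0.0021 for Lhx8, -0.072 to 0.16 for Irx3, -0.19 to 0.13 for Onecut2, -0.084 to 0.014 for Irx2 and -0.42 to 0.022 for Prrx2. With 1 kb around each gene end and no gene body, H3K27me3 was listed at 11 genes under EPZ6438 and 20 in DMSO, H3K4me3 at 13 in DMSO, and both marks at 0 under EPZ6438 and 2 in DMSO. Peaks of at least 400 bp alone gave H3K4me3 at 13 genes in DMSO and both marks at 1 gene in each arm, and both marks as overlapping peaks gave 1 gene under EPZ6438.

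Same-numbered libraries correlated at 0.41, 0.08 and 0.06 in their deviations from the arm means, so the numbers were not taken to pair them, and not every library correlated best with its own number. The deposited library names share a numbered label across the arms, and whether it marks matched cultures is not stated in the sources used here. With the replicate block the count of homeobox genes that changed was 1 (Gsc, adjusted p = 0.0394, with Lhx2 at 0.0592) and that of all genes 1051. The planned count-model tests were not run, and voom is the 1 test made on the recovered reads. Depth limits the 31 untested genes, and no replicate error exists for the peak lists.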
